A study of Saccharomyces cerevisiae with 8 samples.

Results

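Global ribosome footprints were set against mRNA of growing budding yeast, gene by gene, to measure translational efficiency, the footprint level of a gene relative to its mRNA level. The comparison used every library of these kinds, 4 of the 8 in the series: 2 global footprint and 2 mRNA libraries. All 6692 identifiers of the count table were members, of which 5336 passed a filter on counts over all 8 libraries and were tested. The other 4 libraries, 2 of monosome and 2 of polysome footprints, entered the fit to help estimate the spread between replicates. They also took part in the filter for enough counts and in the scaling. With the 4 compared libraries alone, 4440 were tested. The study asked how ribosomes on single-ribosome and many-ribosome complexes contribute to translation, and the global and mRNA libraries give each gene's overall ribosome occupancy and mRNA level.

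All groups shared 1 culture regime: Saccharomyces cerevisiae in the rich medium YEPD at 30 °C, harvested at an optical density (OD600) of 0.6, after 2 min in 100 ug/ml cycloheximide, a drug that stops elongating ribosomes on the mRNA. No genotype or strain is named in the labels. For global footprints, cleared lysate was treated with RNase I, ribosomes were isolated on 1 sucrose gradient and protected fragments of 26 to 32 nt were kept. For mRNA, total RNA of the cleared lysate was depleted of ribosomal RNA and fragmented, and pieces of 20 to 45 nt were kept. Whether replicates are independent cultures is not stated, and p-values therefore cover the spread between these libraries alone, which may be technical.

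A ribosome sitting on an mRNA shields a short stretch of it from nuclease, and the count of such stretches over a coding sequence reflects how many ribosomes were on that gene's mRNA. Dividing by the mRNA level separates what an mRNA contributes by its abundance from what it contributes by how densely ribosomes occupy it. The ratio is relative: it says how a gene stands against the other genes in the same libraries and not how many ribosomes sat on each molecule. In yeast, features long known to bear on this ratio include the mRNA's leader, upstream reading frames and the length of the coding sequence. Ratios here are on the log2 scale, global footprints over mRNA, after edgeR's TMM scaling of the libraries, and levels are in CPM, counts normalised to library size with those factors.

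The global libraries held 749057 and 552992 counts and the mRNA libraries 933252 and 672928. A gene at 3 counts, the upper limit that a count of 0 allows, therefore lay at 3.33 and 4.29 CPM in footprints and at 4.66 and 5.81 CPM in mRNA; these limits cover counting error only. The 10 genes with the most counts took 17.7% and 17.3% of footprints but 30.3% and 29.2% of mRNA. Identifiers with no match in the reference table took 0.103% and 0.137% of footprints against 4.17% and 7.40% of mRNA. Both pairs of replicates differed by more than sampling noise, with a chi-square per degree of freedom of 1.43 for global footprints and 3.72 for mRNA. Transcripts of a-mating-type cells were present and those of the other mating type were near absent: MFA2, a precursor of a-factor, had 629 and 500 footprint counts and 66 and 47 mRNA counts, whereas STE3, the a-factor receptor of alpha cells, had 1 to 3 counts per library. In such bulk cultures, fewer cells in a given state and less RNA per cell cannot be told apart.

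Translational efficiency varied widely between genes. Of 5336 genes tested, 1855 (34.8%) stood higher in global footprints than in mRNA and 1653 (31%) lower, or 65.7% in all, at an adjusted p under 0.05 (edgeR quasi-likelihood F test, Benjamini-Hochberg). At least a 2-fold difference was reached by 1520 of the higher genes (28.5% of those tested) and 1294 of the lower (24.3%), and at least 16-fold by 93 (1.74%) and 188 (3.52%). The libraries of the groups did not overlap for 4333 genes (81.2%). The number of higher and lower genes depends on how libraries are scaled. With scaling to library totals alone, the median log2 ratio over all genes shifted up by 0.76, giving 2906 higher and 1028 lower calls, so that 73.9% of calls were higher rather than 52.9%. With RLE size factors in edgeR the median shift was -0.15, with 1667 higher and 1798 lower, and DESeq2, which changes the scaling and the test, called 1565 and 1749. A gene's or group's ratio therefore places it relative to the other genes of these libraries, and signs that turn with the scaling are given as such.

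The spread was reproducible between replicates. For the 1487 genes that averaged 50 or more counts over the 4 libraries, the 5th and 95th percentiles of the log2 ratio were -3.22 and 2.45, a 50.7-fold range. Efficiencies computed from the replicate 1 and the replicate 2 libraries alone had a Pearson's r of 0.978 across these genes, and of 0.855 across all those tested. Footprint and mRNA levels themselves had an r of 0.687 across all tested genes, against 0.966 between the footprint libraries and 0.953 between the mRNA libraries. These correlations are across genes, which are not independent replicates, and the points of a library share its depth.

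**Figure D1:**
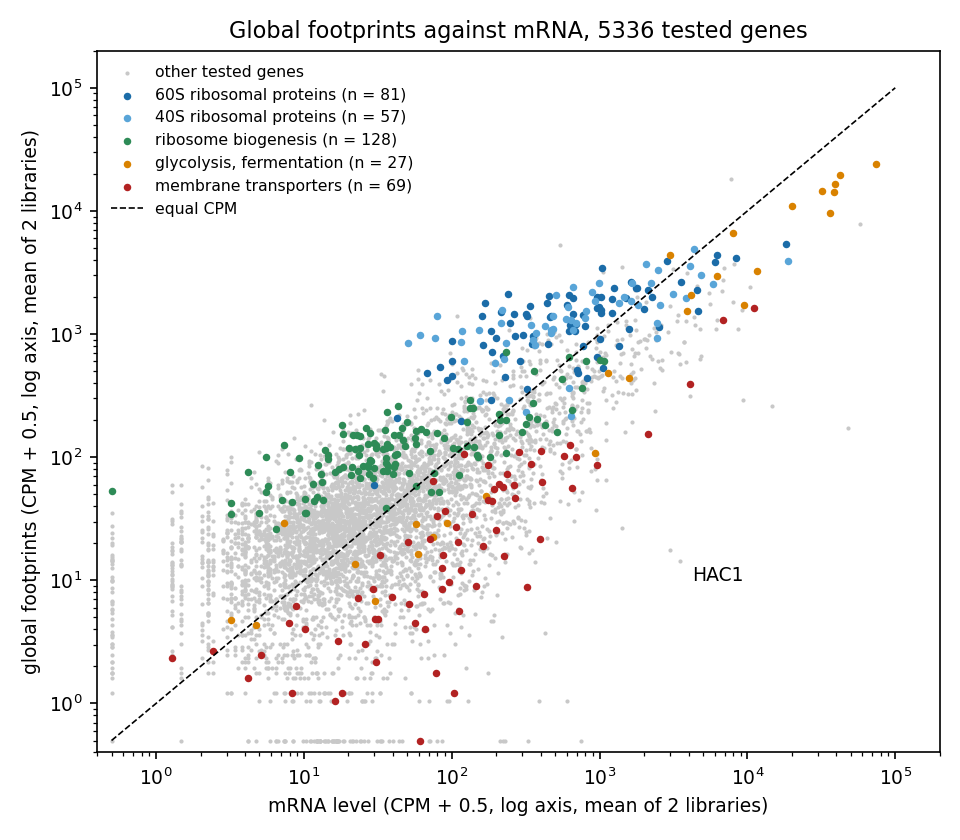
Mean level of each of the 5336 tested genes in mRNA (x axis) and in global footprints (y axis), in CPM plus 0.5 on log axes, with 5 gene lists in colour and a dashed line at equal CPM. Ribosomal proteins and ribosome biogenesis factors lie mostly above the line and membrane transporters below it, and HAC1, marked, lies far below it.

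Of the 15 well-counted genes with the highest ratios, 5 encoded cytosolic ribosomal proteins. TMA7, which was found associated with ribosomes, headed the list of well-counted genes: it stood at 255 and 279 CPM in footprints and 7.76 and 13.5 CPM in mRNA, a log2 ratio of 4.68 (SE 0.27, adjusted p = 6.37e-30). Both footprint libraries lay about the same and far above both mRNA libraries. SEM1, a subunit of the proteasome lid, followed at 132 and 153 CPM in footprints and 4.66 and 11.6 CPM in mRNA, a log2 ratio of 4.18 (SE 0.32, adjusted p = 1.69e-21). SAS10, a component of the small-subunit processome that matures ribosomal RNA, had 123 and 129 CPM against 7.76 and 5.81 CPM (log2 ratio 4.18, SE 0.33, adjusted p = 1.05e-20). It was the longest of these 15 genes, at 1833 nt. The mRNA values of TMA7, SEM1 and SAS10 rest on 3 to 7 counts per library, so the size of each ratio is set by few mRNA reads; without mRNA replicate 2 that of SEM1 was 4.98.

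Others of the 15 with deeper mRNA had nearly as large ratios. RPS29B, a small-subunit ribosomal protein, stood at 1493 and 1316 CPM in footprints and 85.4 and 71.6 CPM in mRNA, a log2 ratio of 4.15 (SE 0.18, adjusted p = 1.06e-38). Its paralogue RPS29A had a ratio of 3.60, and the pair RPS30A and RPS30B had 4.05 and 4.03; as the members of each pair are close copies, their reads may be split between them in a way that is uncertain. TIF11, the initiation factor eIF1A that helps the ribosome scan for the start codon, had 449 and 461 CPM against 37.3 and 31.0 CPM (log2 ratio 3.72, SE 0.21, adjusted p = 4.49e-31). All 4 libraries of TIF11 fell into separate, tight pairs.

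The other genes with the 15 highest ratios were ELF1, a transcription elongation factor (3.94), VMA10, a subunit of the vacuolar proton pump (3.88), ZEO1, a protein of the cell periphery (3.71), RPB10, a subunit shared by the nuclear RNA polymerases (3.71), MFA1, a precursor of the mating pheromone a-factor (3.46), the large-subunit ribosomal protein RPL29 (3.44) and MEO1 (3.42). The mRNA values of ELF1, RPB10 and MEO1 rest on 5 to 8 counts per library, so these genes count as well counted mainly through their footprints. All 15 had an adjusted p of 2.55e-18 or smaller. In each of them both footprint libraries lay above both mRNA libraries. Passing the threshold and such separation were conditions for naming the 15 genes at each end.

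At the other end, among well-counted coding genes of the reference table with footprints in both libraries HAC1 was lowest. HAC1 encodes the transcription factor of the unfolded protein response, and its unspliced mRNA is known as a stored, translationally silent message. It stood at 12.2 and 15.7 CPM in footprints and 3115 and 3834 CPM in mRNA, a log2 ratio of -7.97 (SE 0.21, adjusted p = 5.92e-57), or 252-fold lower in footprints. Its footprints were as scarce in the monosome and polysome libraries, at 10.3 to 11.7 CPM. HAC1 lies at chromosome VI, 75179 to 76147, in the R64 reference table.

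SYG1, a plasma membrane protein, stood at 17.8 and 34.3 CPM in footprints against 1478 and 1343 CPM in mRNA, a log2 ratio of -5.81 (SE 0.18, adjusted p = 3.76e-51). STT3, the catalytic subunit of the oligosaccharyltransferase that attaches sugars to proteins in the endoplasmic reticulum, had 32.2 and 41.5 CPM against 1065 and 832 CPM (log2 ratio -4.71, SE 0.17, adjusted p = 1.77e-45). ALG6, an enzyme that builds the sugar donor for this reaction, had 9.996 and 17.2 CPM against 385 and 348 CPM (log2 ratio -4.80, SE 0.22, adjusted p = 1.32e-36). In SYG1, STT3 and ALG6 the mRNA libraries were close to each other and more than an order of magnitude above both footprint libraries.

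Other genes of this end were MTC7 (-7.05), the phospholipase PLB3 (-6.11), MNL1, a mannosidase of protein quality control in the endoplasmic reticulum (-5.42), the zinc transporter ZRT2 (-5.30), the cadmium exporter PCA1 (-5.26), the lipid droplet factor SCS3 (-4.88) and the sterol acyltransferase ARE1 (-4.70), which overlaps another coding entry. MTC7, PLB3, MNL1 and PCA1 had 1 to 6 footprint counts per library, so the exact size of their ratios is uncertain; without global replicate 1 that of PLB3 was -7.19 and that of PCA1 -6.03. BRE4 had no footprint count in either global library against 145 and 102 mRNA counts, so its footprints were at least 55.4-fold lower against the limit of 3 counts per library. In the deeper monosome libraries it had 22 and 36 counts (3.83 and 4.46 CPM), and in the polysome libraries 5 and 12 (0.65 and 1.73 CPM). The limit of 3 counts lies at 3.33 and 4.29 CPM in the global libraries, so no difference between footprint libraries can be read from these counts. The 3 remaining genes each overlap a non-coding RNA entry. YNL042W-B overlaps YNCN0009W and had no footprint count against 426 and 437 mRNA counts. YGL088W overlaps the small nucleolar RNA SNR10 and had none against 205 and 175. YOR072W-B overlaps the transfer RNA gene SUF11 and had 1 and 0 footprint counts against 252 and 197 mRNA counts, a ratio of mRNA to footprints of 619 with a 95% counting interval of 110 to 24488. The strand setting of the counting is not stated, so RNA of the partner entry cannot be told apart in those mRNA counts.

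**Figure D2:**
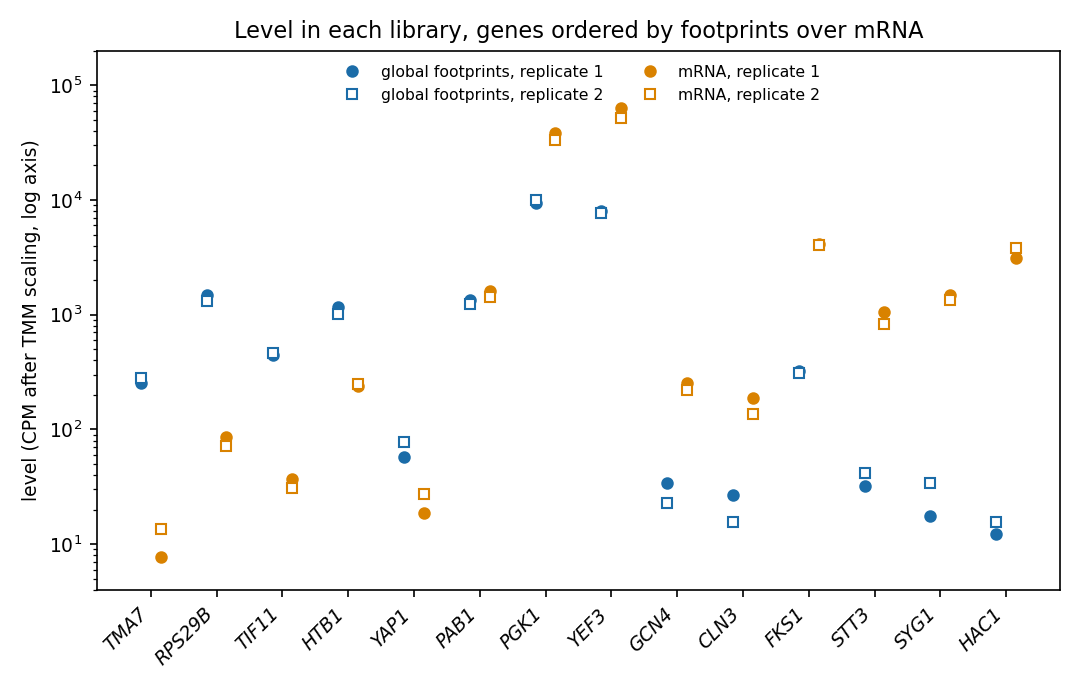
Level of 14 named genes in each library, in CPM after TMM scaling on a log axis, with blue for global footprints, orange for mRNA, filled circles for replicate 1 and open squares for replicate 2. Footprints lie above mRNA from TMA7 to YAP1, near it at PAB1 and below it from PGK1 to HAC1.

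Ratios differed by annotation. Of the 72 tested identifiers that are not in the reference table, 52 were lower and 1 higher, with a median log2 ratio of -4.58. Of 21 genes that overlap a non-coding entry, 18 were lower and 3 higher (median -2.45), and of 94 that overlap another coding entry 35 were lower and 24 higher (median -0.31). The 5149 genes with no overlap had 1827 higher and 1548 lower, with a median of 0.19. One of the unmatched identifiers, YDR445C, held 2.84% and 4.19% of all mRNA counts and had rank 3 there, but only 0.0135% and 0.0289% of footprints.

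Ribosomal proteins took a larger share of the footprints than of the mRNA. The 81 large-subunit genes held 15.2% and 14.3% of footprint counts and 7.81% and 7.44% of mRNA counts, and the 57 small-subunit genes 11.3% and 10.8% against 6.25% and 5.86%. Of the large-subunit genes 60 were higher and 16 lower, with a median log2 ratio of 0.90, and of the small-subunit genes 40 were higher and 11 lower, with a median of 1.03. Among all tested genes the median was 0.15, 34.8% were higher and 31% lower. These shares are the comparison for the counts of each list below. RPL29 (3.44), RPL31A (3.15) and RPL41A (3.14) led the large subunit. RPL3, one of the longest ribosomal proteins, was at the other end, with 5653 and 5222 CPM in footprints against 19649.8 and 16939 CPM in mRNA, a log2 ratio of -1.75 (SE 0.14, adjusted p = 5.19e-21). RPL2B (-1.58), RPS6B (-1.57), RPS4B (-1.40) and RPL4A (-1.14) were lower as well. ASC1, the ribosome-bound scaffold, was lowest of the small-subunit list (-2.24); its span holds the small nucleolar RNA SNR24, whose part in the mRNA counts was not tested.

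Paralogous ribosomal protein genes mostly had like ratios. In 40 of 59 pairs both members were higher, and the median size of the difference within a pair was 0.47 on the log2 scale. In 11 pairs it exceeded 1. RPS7A stood at 2105 and 1811 CPM in footprints and 4447 and 3251 CPM in mRNA, a log2 ratio of -0.98, while RPS7B stood at 1187 and 979 and 765 and 548 CPM, a ratio of 0.72. The difference between these paralogues was -1.71 in the replicate 1 and -1.68 in the replicate 2 libraries. RPS26A and RPS26B had ratios of 1.29 and 2.93, RPL21A and RPL21B of 0.64 and -0.75, and RPL23A and RPL23B of -0.55 and 0.81. With scaling to library totals the values of RPL21B and RPL23A turned positive, at 0.0092 and 0.21. These pairs were named for their difference, and reads that match both copies may have been counted for one or neither.

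The factors that start, elongate and end translation did not share 1 direction. Of 30 initiation factors 19 were higher and 7 lower (median 0.63). Beside TIF11, HCR1, which is associated with the factor eIF3, had 325 and 363 CPM in footprints against 32.6 and 34.8 CPM in mRNA (log2 ratio 3.35, SE 0.21, adjusted p = 1.92e-27). The eIF4G genes TIF4631 and TIF4632, which encode the cap-binding complex's scaffold, had ratios of 0.71 and 2.47, the latter 3.33 without mRNA replicate 2. The RNA helicase DED1, in contrast, stood at 759 and 658 CPM in footprints and 3202 and 2874 CPM in mRNA (log2 ratio -2.10, SE 0.13, adjusted p = 9.51e-28). PAB1, the poly(A)-binding protein, did not pass the test at -0.23 (adjusted p = 0.0999), and its sign turned with library totals, where it was 0.53.

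Of 16 elongation and termination factors 10 were lower and 4 higher (median -0.96); with library totals 8 were lower and 7 higher (median -0.19), and with a filter of at least 50 counts 7 and 7 (median -0.20). YEF3, the fungal elongation factor eEF3, was the second most counted mRNA, with 4.36% and 3.98% of mRNA counts, and held 0.964% and 0.967% of footprint counts. Its level was 8022 and 7653 CPM in footprints and 63153 and 51794 CPM in mRNA, a log2 ratio of -2.87 (SE 0.15, adjusted p = 3.10e-32). The footprint libraries matched each other closely and both mRNA libraries were several-fold higher. EFT1 and EFT2, which encode the same translocation factor eEF2, had ratios of -3.22 and -3.35, and TEF1, which encodes eEF1A, had -1.16; each has a near-identical copy, so these values are uncertain, and close copies also exist for other genes named here, among them ANB1, TDH3, ENO2 and the histone genes. The release factors SUP45 (1.04) and SUP35 (0.66) and ANB1, the eIF5A of low-oxygen growth (1.10), were higher.

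Genes that build ribosomes had the highest median of the larger lists. Of 128 ribosome biogenesis factors 95 were higher and 20 lower (median 1.64), and they took 2.24% and 2.32% of footprints against 0.990% and 1.08% of mRNA. RRP15 (4.41), NOP16 (4.27) and SAS10 (4.18) had high ratios, on 1 to 5 mRNA counts per library, and that of RRP15 ranged from 3.73 to 5.61 when 1 mRNA library was left out. PWP2 (-1.69), NOG1 (-1.42) and UTP10 (-1.24) were lower. CGR1 had 39 and 43 footprint counts and no mRNA count in either library, so its footprints were at least 10.02-fold higher against the limit of 3 counts per library. All 11 histone genes were higher and none lower, also by DESeq2 and by unadjusted p-values under 0.05 (median 1.60). HTB1, a histone H2B gene, had 1159.6 and 1010.1 CPM in footprints and 238 and 248 CPM in mRNA (log2 ratio 2.16, SE 0.15, adjusted p = 4.50e-24).

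The proteasome and the mitochondrial ribosome were also higher in footprints. Of 39 proteasome genes 27 were higher and 4 lower (median 0.96), among them RPN13 (2.40) and RPN5 (2.37); the activator BLM10 was lower (-1.84). Of 77 nuclear genes for mitochondrial ribosomal proteins 47 were higher and 3 lower (median 1.22), and of 41 nuclear genes of oxidative phosphorylation 24 were higher and 8 lower (median 1.35, or 1.19 with genes at 0 in mRNA set to their bound). Most of these mRNAs are rare: 3 of the mitochondrial ribosomal proteins averaged 50 or more counts, and in a fit to genes of that depth their median was -1.01. QCR7, a subunit of respiratory complex III, had 80.0 and 87.3 CPM in footprints and 10.9 and 9.68 CPM in mRNA (log2 ratio 3.01, SE 0.33, adjusted p = 1.61e-13). ATP1 (-1.57) and SDH1 (-2.05) were lower.

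More enzymes of central metabolism were lower than higher in footprints relative to mRNA, by a margin that depends on the scaling. Of 27 glycolysis and fermentation genes 21 were lower and 2 higher (median -1.25). Their share was 16.6% and 16.2% of footprints but 25.4% and 22.8% of mRNA. PDC1, the pyruvate decarboxylase of fermentation and the most counted gene of both kinds of library, held 2.97% and 2.95% of footprints and 5.67% and 5.12% of mRNA, a log2 ratio of -1.63 (SE 0.15, adjusted p = 2.71e-17). PGK1 (-1.90), ENO2 (-1.43), TDH3 (-1.11) and PFK2, a phosphofructokinase subunit (-2.46), were lower, as was GLK1 (-3.10), which overlaps another coding entry. TPI1, triose phosphate isomerase, was higher, with 4474 and 4249 CPM against 3159.8 and 2858 CPM (log2 ratio 0.54, SE 0.13, adjusted p = 2.17e-04). GPM1 did not pass at -0.26 (adjusted p = 0.0774) and turned to 0.50 with library totals.

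Of 65 amino acid synthesis enzymes 47 were lower and 6 higher (median -1.12), of 19 TCA cycle enzymes 13 were lower and 1 higher (median -0.94), and of 25 enzymes of mevalonate and sterol synthesis 17 were lower and 3 higher (median -1.16). With library totals the counts lower and higher became 19 and 3 for glycolysis and fermentation, 35 and 19 for amino acid synthesis, 7 and 5 for the TCA cycle (median -0.18) and 13 and 9 for sterol synthesis. The reductases of the mevalonate pathway, HMG1 (-3.05) and HMG2 (-3.67), which are anchored in the endoplasmic reticulum, were among the lowest, while IDI1 (2.44) and ERG6 (1.39) were higher. Aminoacyl-tRNA synthetases had a median of -0.42, with 13 of 21 lower and 4 higher, but this sign turned with library totals, where the median was 0.34. Chaperones were mixed, with 21 of 50 higher (42%) and 16 lower (32%), against 34.8% and 31% of all tested genes. The median of the chaperones was 0.12 and became -0.04 with DESeq2. Among members that averaged 20 counts or more, the 3 highest were subunits of prefoldin, which hands unfolded proteins to the cytosolic chaperonin: YKE2, with 60 and 39 footprint counts and 1 and 2 mRNA counts, GIM4 (3.67, on 3 mRNA counts in each library) and GIM5 (2.87, or 3.66 without mRNA replicate 2). The 3 lowest of them were KAR2 (-3.18), a chaperone of the endoplasmic reticulum, SSB2 (-2.56), a chaperone of nascent chains in the cytosol, and LHS1 (-2.56, or -1.96 without mRNA replicate 1), which works with KAR2.

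**Figure D3:**
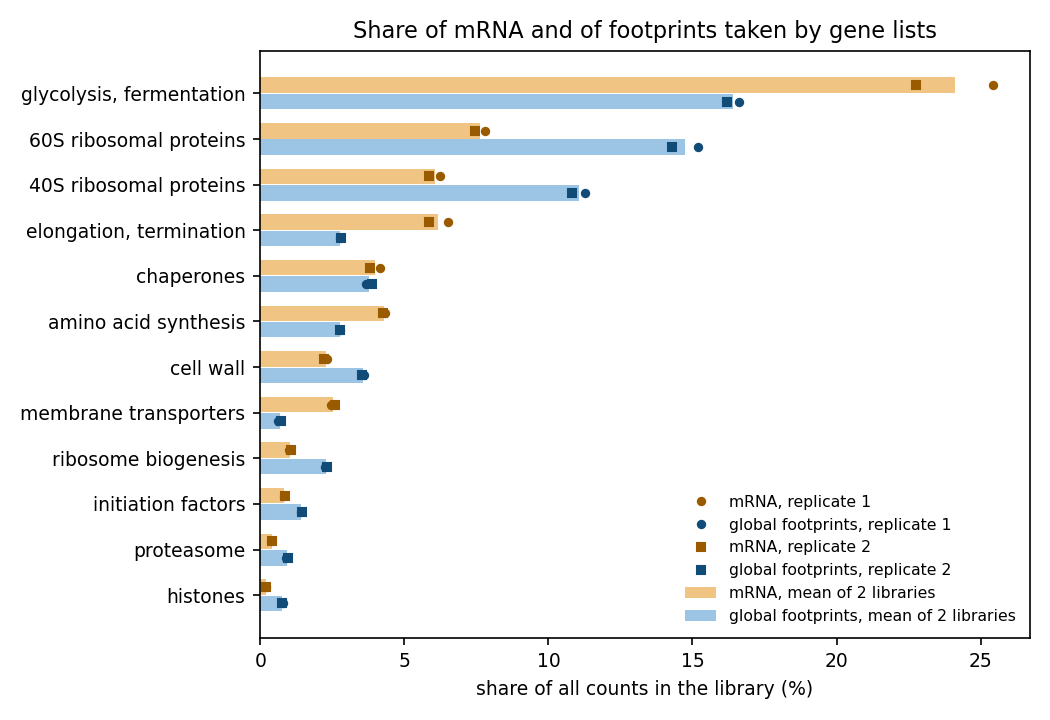
Share of all counts of a library taken by 12 gene lists, in percent, with bars for the mean of the 2 mRNA (orange) and 2 global footprint (blue) libraries and points for each library. Glycolysis and fermentation genes held 24.1% of mRNA and 16.4% of footprints on average, and the large-subunit ribosomal proteins 7.63% and 14.7%.

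Most membrane transporters and cell wall proteins were lower in footprints than in mRNA. Of 69 transporters 60 were lower and none higher, also by DESeq2 and by unadjusted p-values under 0.05 (median -2.55); with library totals 53 were lower and 1 higher. The transporters took 0.616% and 0.729% of footprints against 2.45% and 2.59% of mRNA. PMA1, the proton pump of the plasma membrane, had 1545 and 1681 CPM in footprints and 11308 and 10746 CPM in mRNA (log2 ratio -2.77, SE 0.14, adjusted p = 2.10e-34). The footprint libraries differed little and both mRNA libraries were far above them, by 6.84-fold in the fit. The 9 transporters that did not pass were rare or near equal, as in ATO3 (-0.18) and CTR1 (-0.25), which were chosen after their values were seen. Their ratios were not all near 0: the highest of the list was 1.09, and it was not called.

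Of 53 cell wall genes 47 were lower and 3 higher (median -1.90). FKS1, the glucan synthase that spans the membrane many times, had 324 and 308 CPM in footprints and 4130.3 and 4021 CPM in mRNA (log2 ratio -3.69, SE 0.14, adjusted p = 8.80e-44). PLB1 (-4.29) and PLB2 (-4.41) were lower still. Yet this list took more of the footprints, 3.60% and 3.53%, than of the mRNA, 2.32% and 2.22%. The short mannoprotein gene CCW12 alone held 2.25% and 2.21% of footprints and 0.578% and 0.547% of mRNA (log2 ratio 1.22, SE 0.14, adjusted p = 2.01e-12), and CWP2 had a ratio of 1.59. A summed share and a median over genes thus had opposite directions in the cell wall list.

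Sets of secretory pathway enzymes were described further after STT3 and ALG6 had been seen among the lowest genes, and these lists were chosen with values known. All 6 protein O-mannosyltransferases, which add mannose to proteins in the endoplasmic reticulum, were lower (median -3.50), and none was higher by DESeq2 or by an unadjusted p under 0.05. PMT4 stood at 45.5 and 57.2 CPM in footprints and 787 and 735 CPM in mRNA. Of 16 enzymes that assemble the lipid-linked sugar donor 10 were lower and 1 higher (median -1.32). Those lower included ALG6 (-4.80), ALG3 (-4.05), ALG9 (-3.77), ALG8 (-3.05), ALG7 (-1.64), ALG12 (-1.60), DIE2 (-1.42), DPM1 (-1.22) and SEC59 (-1.21). ALG14 was higher (1.27), but no member of the list was called higher with RLE size factors or DESeq2. ALG1, ALG2, ALG5, ALG11 and ALG13 did not pass, with log2 ratios from -0.46 to 0.80. Of the 9 subunits of the oligosaccharyltransferase, 3 were higher and 6 lower: OST4 (2.48), OST5 (2.07) and OST2 (1.89) were higher, and STT3 (-4.71), OST1 (-2.04), SWP1 (-1.55), OST6 (-1.51), OST3 (-1.38) and WBP1 (-0.64) were lower; the value of WBP1 is smaller than the shift of the median with library totals, where 5 subunits were lower.

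Not every membrane protein was lower. Of 19 SNARE proteins, which fuse vesicles and are mostly held in the membrane by a tail at their end, 16 were higher and none lower (median 2.34), also by unadjusted p-values under 0.05; this list too was chosen after values were seen. DESeq2 called 15 higher and none lower, and edgeR with RLE size factors 15 higher and 1 lower. Most of these mRNAs are rare, with a median level of 8.53 CPM. Only 2 of the list averaged 50 or more counts, and in a fit to genes of that depth 1 was higher. The median length of the list was 824 nt, against 1779 nt for the transporters. SNC2 had 106 and 93 CPM in footprints against 20.2 and 17.4 CPM in mRNA (log2 ratio 2.40, SE 0.28, adjusted p = 1.60e-12). SEC20, NYV1 and SEC22 did not pass. Subunits of the nuclear RNA polymerases, the last list chosen in this way, had 23 of 31 higher and 4 lower (median 1.25). The 4 were large subunits that form the catalytic core, RPA190 (-1.15), RPO21 (-1.64), RPA135 (-1.79) and RPO31 (-1.99). RPB2 (-0.10) and RET1 (-0.03), the second-largest subunits of polymerases II and III, did not pass.

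**Figure D4:**
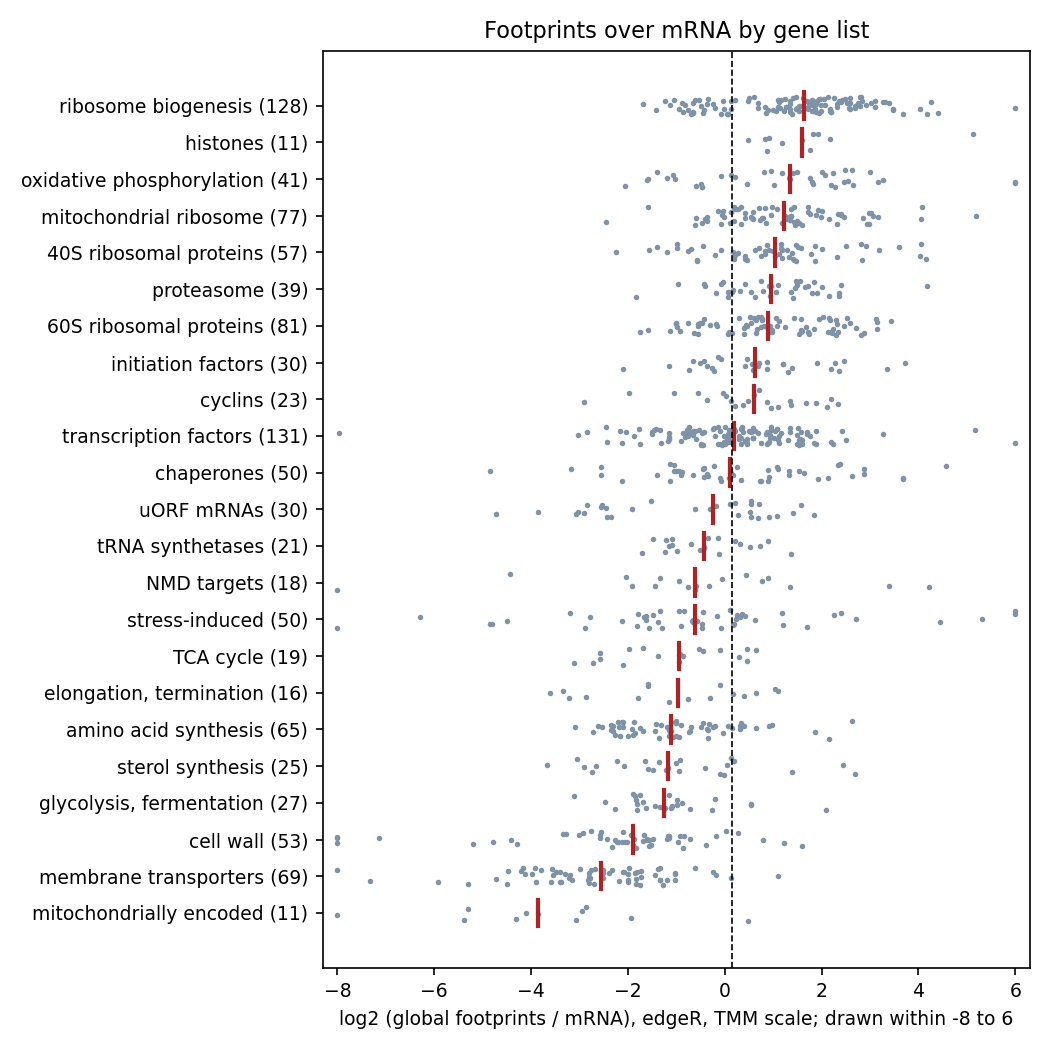
The log2 ratio of global footprints over mRNA for each tested member (points) of 23 gene lists, with a red bar at each list's median and a dashed line at the median of all tested genes, 0.15; the number tested is in brackets, and values beyond -8 or 6 are drawn at those limits. Medians run from -3.86 for mitochondrially encoded genes to 1.64 for ribosome biogenesis factors.

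Messages known for upstream reading frames lay on both sides, with log2 ratios from -4.71 to 1.85. Of 30 tested, 13 (43.3%) were lower and 5 (16.7%) higher, against 31% and 34.8% of all tested genes. The median was -0.24 and became 0.53 with library totals. GCN4, the transcription factor whose upstream reading frames are the textbook case of translational control, had 34.4 and 22.9 CPM in footprints against 255 and 223 CPM in mRNA (log2 ratio -3.03, SE 0.21, adjusted p = 1.28e-24). CLN3, a G1 cyclin, had 26.7 and 15.7 CPM against 186 and 137 CPM (log2 ratio -2.91, SE 0.24, adjusted p = 9.50e-20). In GCN4 and CLN3 all mRNA values were several-fold above all footprint values. CPA1, whose upstream peptide responds to arginine, had a ratio of -1.91 and the transporter HOL1 of -3.07. YAP1, an oxidative stress factor, stood at 57.8 and 77.3 CPM in footprints and 18.6 and 27.1 CPM in mRNA (log2 ratio 1.57, SE 0.31, adjusted p = 5.02e-06). HAP4 was not called at 0.92 (adjusted p = 0.175), on 3 to 17 counts per library; it passed when global replicate 2 was left out, at 1.49, and with library totals, at 1.68, and was -0.23 without global replicate 1.

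Of 18 natural targets of nonsense-mediated decay, 4 (22.2%) were lower and 3 (16.7%) higher, with a median of -0.60 that became 0.16 with library totals. Among the 3 genes read by programmed frameshift, ABP140 was higher at 2.41 (SE 0.23, adjusted p = 1.73e-16), and OAZ1 (1.05) and EST3 (0.89) did not pass (adjusted p = 0.136 and 0.145). Both passed with library totals, at 1.80 and 1.65, and EST3 also when global replicate 1 was left out, at 1.40. Of 131 transcription factors 41 were higher and 29 lower (median 0.20, or 0.05 with DESeq2), or 31.3% and 22.1%, against 34.8% and 31% of all tested genes, with MCM1 (2.50) and REB1 (2.24) high. Of 23 cyclins 10 (43.5%) were higher and 2 (8.70%) lower (median 0.60). Of 50 stress-induced genes 22 were lower and 10 higher, with a median of -0.61 that became 0.15 with library totals; HSP12, a stress marker, was near the limit of counting in all 4 libraries.

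Mitochondrially encoded genes are read by mitochondrial ribosomes, which are distinct from those in the cytosol. Of 11 tested, 10 were lower and none higher, also at an unadjusted p under 0.05; DESeq2 called 8 lower and none higher. The median was -3.86, or -3.07 with the gene at 0 in footprints set to its bound. Most of these genes overlap one another or another entry, and without overlapping identifiers 4 were tested, of which 3 were lower (median -2.43). With library totals 1 was higher. COB, cytochrome b, which overlaps BI2, BI3 and BI4, had 3 and 2 footprint counts against 93 and 61 mRNA counts. OLI1, a subunit of the ATP synthase, did not pass, at 53.3 and 44.4 CPM in footprints and 32.6 and 38.7 CPM in mRNA. None of the 110 non-coding RNAs of the list prepared for a check of RNA off the ribosome was in the count table.

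Ratios were lower in longer genes. The 161 genes no longer than 300 nt had a median log2 ratio of 2.47, with 111 higher and 12 lower. The median was 1.504 for the 638 genes from there to 600 nt, with 426 higher and 54 lower, and 0.51 for the 1689 genes between 600 and 1200 nt, with 700 higher and 410 lower. It was -0.29 for the 1935 genes between 1200 and 2400 nt and -0.33 for the 841 longer ones, of which 142 were higher and 354 lower. With genes at 0 on one side set to their bound, the first became 2.04 and the next 1.40. The last pair of medians is smaller than the shift between scalings, so its sign may depend on the scaling. The replicate 1 and replicate 2 libraries taken alone gave 2.25 and 2.00 for the shortest class and -0.38 and -0.42 for the longest. Without cytosolic ribosomal proteins the class medians were 2.31, 1.47, 0.45, -0.29 and -0.33. Across 5264 genes Spearman's rho of the ratio with length was -0.402 (Pearson's r -0.357), and rho was -0.572 for the 852 genes that averaged 100 or more counts. These are descriptions across genes that share libraries and depth, and lengths in the reference table include introns.

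**Figure D5:**
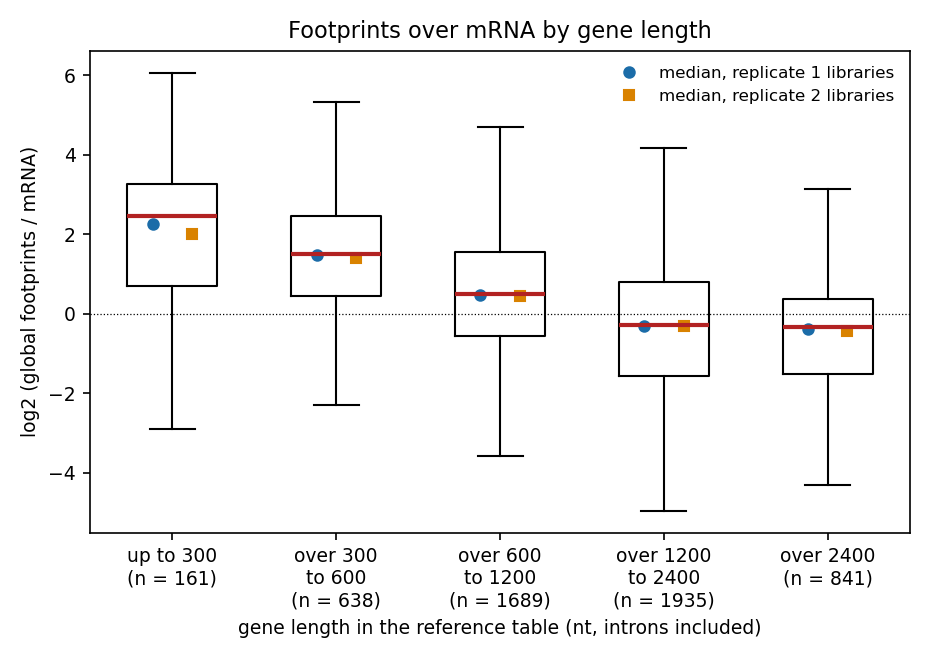
The log2 ratio of global footprints over mRNA in 5 classes of gene length, with boxes for the quartiles, a red line for the median and whiskers to 1.5 interquartile ranges; circles and squares give the medians from the replicate 1 and the replicate 2 libraries alone. Medians of the combined fit fall from 2.47 to -0.33 from the shortest to the longest class.

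Ratios were also lower for abundant mRNAs. With genes split in 4 equal parts of 1316 by mRNA level per kb of length, medians were 1.10, 0.48, -0.13 and -0.69 from the rarest to the most abundant; the last pair is smaller than the shift of the median with library totals. Spearman's rho with mRNA level per kb was -0.391. As the mRNA count also stands in the denominator of the ratio, an error in it moves both measures in opposite directions; with the ratio taken from 1 replicate and the mRNA level from the other, rho was -0.342 and -0.352. For genes that averaged 100 or more counts it was -0.193, smaller than the value for length. A gene could pass the filter on its footprints alone, which favours high ratios among the rarest mRNAs. Of the tested genes 47 had no mRNA count in either library. Taking the ratio and the mRNA level from different replicates does not remove this selection, and its part in the trend was not tested.

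Lists were also described within a single length class, where some had the direction of the whole list and others did not. Of the 1935 genes between 1200 and 2400 nt, 475 (24.5%) were higher and 771 (39.8%) lower, with a median of -0.29. In that class 45 of 51 transporters were lower and none higher (median -2.80), and all 24 cell wall genes were lower (median -2.21). Of 12 glycolysis and fermentation genes 11 were lower (median -1.73), and of 34 amino acid synthesis enzymes 29 were lower and 2 higher (median -1.37). Ribosome biogenesis factors in the class had 45 of 64 higher and 11 lower (median 1.23), and proteasome genes 10 of 12 higher and 1 lower (median 1.48). Of 15 mRNAs with upstream reading frames in the class, 10 were lower and 1 higher (median -2.43), against a median of -0.24 for the whole list. All 6 genes of oxidative phosphorylation in the class were lower (median -1.48), whereas the whole list had a median of 1.35. The 11 initiation factors of the class had 5 higher and 4 lower and a median of -0.23, against 0.63 for the whole list. That median lay near the one of all genes of the class and is smaller than the shift of the median with library totals. Both small-subunit ribosomal proteins of this length were lower and both large-subunit ones higher, and none of 4 mitochondrial ribosomal proteins passed the test. The small-subunit genes included ASC1 (1233 nt), whose span holds the small nucleolar RNA SNR24. As lengths include introns, a gene of this class can have a shorter coding sequence.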

How the data were processed

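Ribosome footprints and mRNA fragments of budding yeast were measured by sequencing in 8 libraries, of which 2 global footprint and 2 mRNA libraries are compared. The values are raw counts of reads per gene, deposited as whole numbers and made by the authors with TopHat, Bowtie and HTSeq on sacCer3, per the submitters' processing notes, with versions, strand setting and treatment of reads with several matches not given in the sources used here. The authors' deposited log2 fold change and adjusted p-value columns from DESeq2, per the file headers, name no comparison and were not used here.

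Of 6692 identifiers 6008 matched the R64 reference table, which gave positions, lengths and overlaps. Counts were tested with edgeR 4.0.16 (R 4.3.3, limma 3.58.1): a quasi-likelihood F test on 1 fit of 8 libraries in 4 groups, TMM factors, Benjamini-Hochberg adjustment and a threshold of 0.05, contrast global minus mRNA. The filter filterByExpr (minimum count 10, minimum total 15), run on all 8 libraries, kept 5336. The SE of a log2 ratio is its size divided by the square root of F and restates the test. A gene at 0 in both libraries of a group was given a bound against 3 counts per library. Per-replicate ratios used a pseudocount of 0.5 CPM. DESeq2 1.42.0, other scalings, filters, left-out libraries and a replicate block were alternatives. Figures used Python 3.11.15 and matplotlib 3.10.9. Libraries of 552992 to 933252 counts limit precision for rare mRNAs. On counts simulated for this comparison over 5301 genes, 70% of 100 genes changed by 1 and 97% of 100 changed by 2 on the log2 scale were called, and 0.118% of unchanged ones. Changed genes averaged at least 10 counts, changes went evenly up and down, and all other genes were set equal. These rates therefore do not cover data in which most genes differ, as here, where 65.7% were called.

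Named genes are the 15 highest and 15 lowest ratios among coding genes that passed the threshold with a mean of at least 50 counts and no overlap between groups, up to 3 members each way per list with a mean of at least 20 counts, a set of well-known genes, the 10 most counted genes of each kind and the 4 ribosomal protein pairs that differ most; others were named after their values were seen. Members and lists were chosen with earlier results of these data known. Lists are described by counts and medians, without a test. In the pairing check, same-numbered libraries' deviations had a correlation of 0.0961 with 2 pairs, so the numbers were not taken to pair libraries.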

Additional observations from a re-analysis of the deposited data

How the results depend on the processing

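No gene called in the reported fit was called in the opposite direction under RLE and DESeq2 size factors, TMM without ribosomal proteins, no filter, the 4 libraries alone, each left-out library and the replicate block. Opposite calls arose only with library totals (46 genes) and with the filter of at least 50 counts (4 genes). With library totals 2906 genes were higher and 1028 lower, and with at least 50 counts, which left 1487 genes tested, 710 and 564. With the 4 libraries alone, where the filter and scaling used no monosome or polysome library, 4440 genes were tested. Of these, 1624 were higher and 1528 lower. Leaving out 1 library gave 1618 to 1750 higher and 1369 to 1507 lower genes. The replicate number as a block gave 1854 and 1652; the numbers are not known to pair libraries, and PAB1 (-0.23) and GPM1 (-0.26) passed as lower only with that block or with RLE, DESeq2 or the 4 libraries alone, and GPM1 also without unmatched or overlapping identifiers. Signs turned with library totals for PAB1 (0.53), GPM1 (0.50), RPN1 (0.33), RPL23A (0.21), RSM26 (0.18), GCD1 (0.028) and RPL21B (0.0092), and with at least 50 counts for PAB1 (0.33), GPM1 (0.30), RPN1 (0.13) and RPL23A (0.011). Relative to all genes, the median of chaperones (-0.03) became 0.14 with no filter, 0.37 with at least 50 counts, and between -0.16 (without mRNA replicate 1) and 0.13 (without global replicate 1) with 1 library left out, above 0 also without mRNA replicate 2 (0.044). With at least 50 counts the relative medians of mitochondrial ribosomal proteins, oxidative phosphorylation and cyclins became -1.22, -0.11 and -0.64, and that of transcription factors became -0.012 with the 4 libraries alone. Spearman's rho with length was -0.390 and -0.385 in the replicate 1 and 2 libraries alone, -0.572 with at least 100 counts, and, in settings chosen after seeing the data, -0.391 without ribosomal proteins and -0.411 without overlapping genes. The rank correlation with mRNA level was -0.424 in replicate 1 alone and -0.193 with at least 100 counts, and, in the added settings, -0.429 without ribosomal proteins and -0.342 and -0.352 across replicates. The cause of these changes was not tested. PCL9 without mRNA replicate 1, SER2 without global replicate 1, CLN2 with DESeq2, and ADH1, DSK2, STE2 and STE6 with library totals no longer passed. RPN1 without mRNA replicate 1 and RSM26 without any 1 library or with no filter did not pass. The planned comparison by start-codon context was not run, since no sequence was used here. Depth limits genes with few mRNA counts, whose ratios can move with 1 read.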

Other observations

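Some genes had footprints with no mRNA count, and others the opposite. For 12 genes the mRNA count was 0 in both libraries while each global library held at least 10 counts, among them ATG8, CGR1, VPS51, DAD2, TMA23 and MCM16. ATG8, a ubiquitin-like protein of autophagy, had 15 and 10 global counts, and 112 to 168 counts in each monosome and polysome library. TMA23, a factor of ribosome biogenesis, had 27 and 28 global counts and 246 and 251 polysome counts against 72 and 78 monosome counts. The global libraries held 749057 and 552992 counts, the monosome ones 4723489 and 6443263, and the polysome ones 8686385 and 7494965. These raw counts therefore do not compare levels between the kinds of library. The footprints of ATG8 and TMA23 were thus seen in all 6 footprint libraries.

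In the other direction, 22 identifiers had no global footprint count with at least 10 mRNA counts in each library. Of these, 7 are not in the reference table and 3 overlap a non-coding entry. Several of the rest encode membrane proteins: FLR1, a multidrug transporter (50 and 22 mRNA counts), FRE2, a metal reductase (26 and 24), FAT3 (23 and 16) and FKS3, related to glucan synthases (12 and 11). Each had some monosome or polysome counts, 1 to 13 per library except for 1 polysome library of FLR1 at 0. Those libraries are several-fold deeper than the global ones.

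The genes of the pheromone system named by the list lay on both sides. MFA1 (3.46), MFA2 (2.86) and STE18, the gamma subunit of the pheromone-coupled G protein (2.48, or 3.18 without mRNA replicate 2), were higher in footprints, and the receptor STE2 (-1.05), the a-factor exporter STE6 (-1.27) and the secreted protease BAR1 (-2.39) were lower. With library totals STE2 and STE6 no longer passed. Of 18 tested genes of the list 9 (50%) were higher and 4 (22.2%) lower, with a median of 0.50, against 34.8% and 31% of all tested genes. SPO24, a sporulation gene, was the clearest of 19 meiosis and sporulation genes tested, with 1456 and 1266 CPM in footprints against 348 and 329 CPM in mRNA (log2 ratio 2.01). Of those 19, 5 (26.3%) were higher and 2 (10.5%) lower, both below the shares of all tested genes.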
